A study of Mus musculus with 12 samples.

Results

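The leptin receptor gene *Lepr* and the genes of 9 secreted proteins that livers release or that bind such proteins (*Fgf21*, *Gdf15*, *Angptl4*, *Angptl8*, *Igfbp1*, *Igfbp2*, *Fst*, *Inhbe* and *Inhba*) were followed across livers of WT and *Ahr* HKO mice on an ethanol or a control diet. The genes were chosen by symbol, and each of the 10 was found once among the 24532 genes of the table. All 10 passed the filter on low counts, as did 14038 genes in all.

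The livers came from male C57BL/6 mice in 4 groups of 3: WT on the control diet (WT+con), WT on the ethanol diet (WT+EtOH), *Ahr* HKO on the control diet (*Ahr* HKO+con) and *Ahr* HKO on the ethanol diet (*Ahr* HKO+EtOH). Mice were 10 to 12 weeks old when the diets began, and both diets lasted 5 weeks. The ethanol diet was the Lieber-DeCarli liquid diet, with ethanol at 5% of the volume and 36% of the calories, and the control diet was isocaloric. All mice carried *Ahr* alleles with loxP sites around exon 2. The *Ahr* HKO mice also carried Cre under the albumin (*Alb*) promoter, which is active in hepatocytes, and the WT mice were littermates without Cre. Other cells of the liver therefore kept *Ahr* in both genotypes, and the libraries were made from polyadenylated RNA of whole liver. In such bulk RNA, fewer cells of a type and less RNA per cell cannot be told apart.

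Hepatokines are proteins that the liver secretes and through which it acts on other tissues. *Fgf21* and *Gdf15* encode stress-induced hormones that act on the brain and, for *Fgf21*, on fat tissue. *Angptl4* and *Angptl8* encode inhibitors of lipoprotein lipase, the enzyme that clears triglyceride from blood. IGFBP1 and IGFBP2 bind insulin-like growth factors, follistatin (*Fst*) binds and blocks activins, and *Inhba* and *Inhbe* encode the subunits of activin A and activin E. *Lepr* encodes the receptor of leptin, a hormone of fat tissue. A short form of the receptor and a soluble form released into blood are known in addition to the long signalling form, and liver expresses mainly the short forms and can be a source of the soluble one.

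AhR, the transcription factor removed in the *Ahr* HKO mice, binds a short DNA element whose core is GCGTG. That core was searched, with 6 other motifs, in the 250 bases before each RefSeq start site of GRCm38.p6, and it was present in 28.2% of 32851 such windows. A start site was listed for 8 of the 10 genes and none was used for *Angptl4* and *Fst*. *Lepr*, *Gdf15* and *Igfbp2* had 2 windows each, so the 8 genes had 11 windows, while the shares given are per window. The core was found in 6 of the 8, namely *Lepr*, *Fgf21*, *Angptl8*, *Igfbp1*, *Igfbp2* and *Inhba*. The core TGATGNAA of the composite element of ATF4, a transcription factor of the amino acid and unfolded protein responses, was found in *Fgf21*, *Angptl8* and *Inhbe*, against 3.45% of all windows. The E-box CACGTG was found in *Fgf21*, *Gdf15* and *Igfbp2*, against 6.02% of all windows. In *Gdf15* the E-box lay only in the window of its second start site, where 196 of the 250 bases are annotated exon. Neither the cyclic AMP element TGACGTCA (1.55% of windows) nor the STAT motif TTCNNNGAA (7.02%) was found in any of the 8. The half-site TGTTCT of the glucocorticoid receptor element (16.1% of windows) was found in *Igfbp2*, and the nuclear receptor half-site AGGTCA (14% of windows) in *Gdf15*. All motifs were read on both strands, and no listed match shared a base with another except where it reads the same on both strands. A match is a description of the letters and not evidence of binding.

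The stretches below are shown because they hold these motifs before genes whose levels differed between groups or, for *Angptl8* and *Inhbe*, because they hold the same ATF4 core as *Fgf21* before genes that were not called in any comparison. Each reads 5′ to 3′ in the direction of the gene, and capitals mark the AhR core, the E-box and the ATF4 core, on either strand. For *Lepr* and *Inhbe*, whose windows lie in annotated transcribed sequence, only the 30 bases around the motif are given.
*Lepr*, chr4:101717350-101717379, plus strand: caagctcctcggcCACGCgcgcagcgtccc
*Fgf21*, chr7:45615491-45615740, minus strand: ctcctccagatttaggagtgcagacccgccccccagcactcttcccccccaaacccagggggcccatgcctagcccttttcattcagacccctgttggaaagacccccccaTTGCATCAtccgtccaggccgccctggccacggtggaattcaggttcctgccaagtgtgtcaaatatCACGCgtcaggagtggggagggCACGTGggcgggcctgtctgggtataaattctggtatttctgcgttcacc
*Angptl8*, chr9:21835260-21835509, plus strand: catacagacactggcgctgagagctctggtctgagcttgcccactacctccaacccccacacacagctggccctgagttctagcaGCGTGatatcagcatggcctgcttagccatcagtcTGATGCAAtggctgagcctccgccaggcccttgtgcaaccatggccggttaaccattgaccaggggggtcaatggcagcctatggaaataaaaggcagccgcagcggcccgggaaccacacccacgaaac
*Igfbp1*, chr11:7197537-7197781, plus strand: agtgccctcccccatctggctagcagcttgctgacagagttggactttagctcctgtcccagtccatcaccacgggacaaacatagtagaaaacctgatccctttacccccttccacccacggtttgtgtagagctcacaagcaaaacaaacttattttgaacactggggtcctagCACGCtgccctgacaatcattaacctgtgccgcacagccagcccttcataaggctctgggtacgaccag
*Igfbp2*, chr1:72824230-72824479, plus strand: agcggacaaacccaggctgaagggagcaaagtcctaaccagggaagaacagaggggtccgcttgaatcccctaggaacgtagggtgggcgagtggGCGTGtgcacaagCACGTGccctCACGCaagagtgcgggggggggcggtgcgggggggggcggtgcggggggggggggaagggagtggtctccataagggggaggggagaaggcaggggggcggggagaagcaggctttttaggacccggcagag
*Inhbe*, chr10:127352011-127352040, minus strand: catcctctttcTTGCATCAtgcatgtccac

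In *Fgf21* the ATF4 core began 139 bases before the start site, the AhR core 72 and the E-box 50 bases before it. In *Angptl8* the AhR core began 165 and the ATF4 core 130 bases before the start site. *Igfbp2* held the AhR core on both strands, 155 and 132 bases before its first start site, with the E-box between them at 142 bases.

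Between 46306518 and 74336255 reads were counted on genes in a library. Levels are given as CPM, the count of a gene scaled to the library total and to the TMM factor. A floor of 3 counts equals 0.0425 to 0.0676 CPM, which covers counting error only. The lowest count of any of the 10 genes was 28, for *Fgf21*. The targeted gene *Ahr* had 16.6 to 20.2 CPM in WT+con, 20.8 to 30.5 in WT+EtOH, 41.3 to 65.5 in *Ahr* HKO+con and 24.7 to 41.8 in *Ahr* HKO+EtOH. A count over the whole gene does not show whether exon 2 is present, so it checks no label, and the groups are named as labelled. Of 6 tested targets of AhR, *Cyp1a2* was called lower in *Ahr* HKO+con than in WT+con (490 ± 114 and 154 ± 91.2 CPM in WT+con and *Ahr* HKO+con, SD, n = 3) and *Cyp1a1* higher (0.256 ± 0.0809 and 0.723 ± 0.245 CPM). The other 4 were not called there. The hepatocyte markers summed to 72550 to 115300 CPM in the 12 livers, and most of the sum was *Alb* in each liver. *Ahr* HKO+con liver 1 stood apart by its adipocyte and cholangiocyte markers (34.8 and 476 CPM, against at most 2.26 and 180 in the other livers). Nearly all of these sums was *Cfd* (34.7 CPM) and *Spp1* (462 CPM), while *Krt7*, *Krt19* and *Sox9* of that liver lay within the range of the others. *Epcam* of that liver was the highest of the 12 livers, at 7.71 CPM against at most 4.86 in the others. The same liver also had the highest Kupffer cell and leukocyte sums of the 12 livers (840 and 27.5 CPM). WT+EtOH liver 2 had the highest Kupffer cell and endothelial sums of its group (756 and 385 CPM, against at most 315 and 205 in livers 1 and 3) and the lowest hepatocyte sum of its group (82200 CPM). The labels do not say whether livers of a group came from separate cages or runs, so *P* values measure the spread between these samples.

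Per length, the highest level of the 10 genes in every group was that of *Igfbp2*, at 426 ± 52.7 FPKM (SD, n = 3) in WT+con. *Angptl4* followed at 46.4 ± 1.23 FPKM in WT+con, then *Angptl8* at 28.4 ± 12.8, *Inhbe* at 21.4 ± 3.11 and *Igfbp1* at 10.2 ± 4.74. The other 5 were low in WT+con, from *Inhba* at 2.04 ± 1.25 FPKM down to *Lepr* at 0.523 ± 0.0988. *Lepr* was thus the lowest of the 10 per length in WT+con, and it was the 8th of 10 in WT+EtOH at 10.2 ± 1.94 FPKM.

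**Figure D1:**
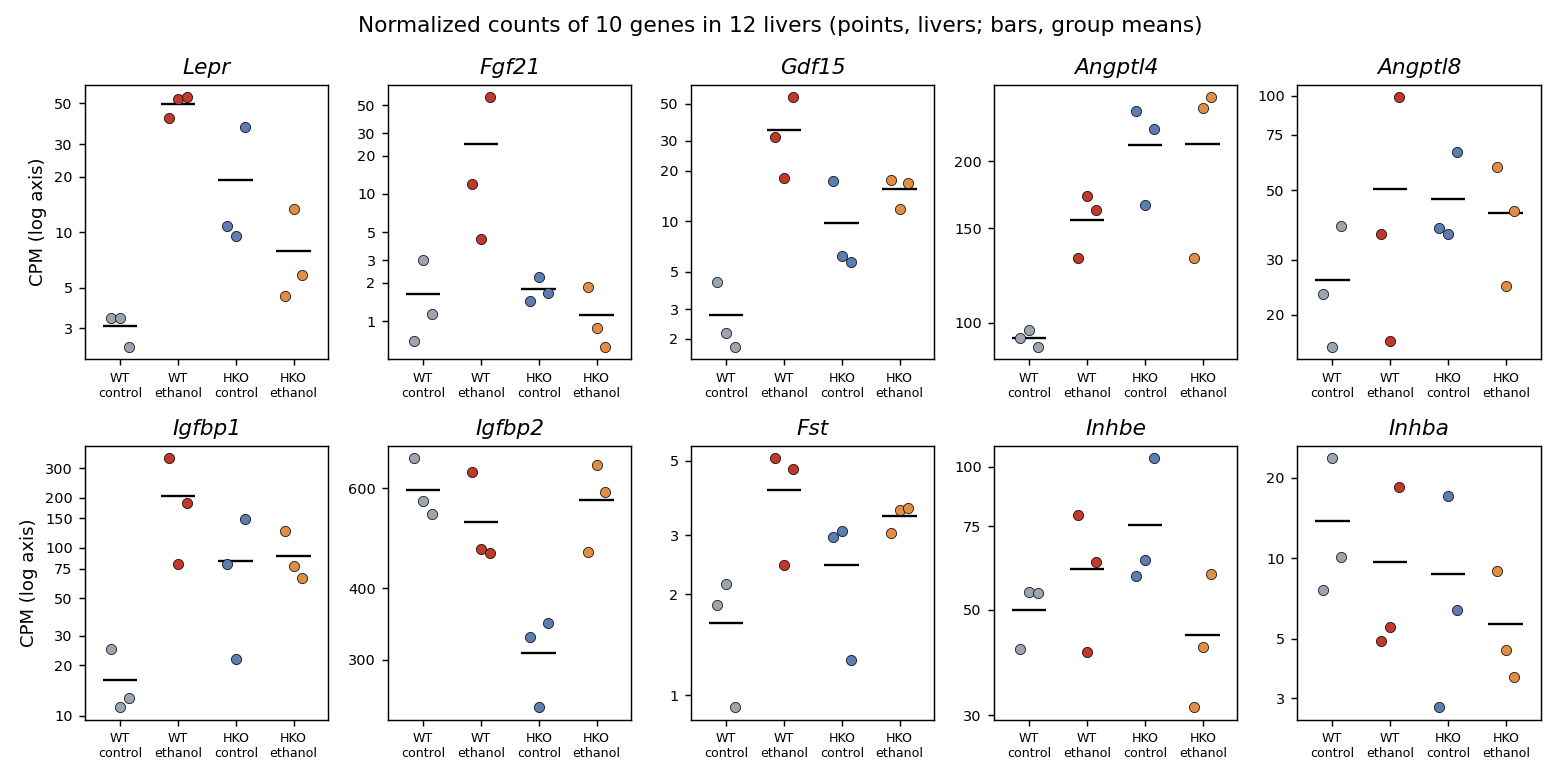
Level of each of the 10 genes in CPM on a log axis, with a point for each of the 12 livers and a bar at the arithmetic mean of each group of 3. *Lepr* in WT+EtOH lies between 41.8 and 53.8 CPM, above every liver of the other groups, and *Igfbp2* in *Ahr* HKO+con lies between 247 and 348 CPM, below every liver of the other groups.

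The first comparison, the ethanol against the control diet in WT livers, asks which of these genes the ethanol diet moved when AhR was present. *Lepr*, *Gdf15*, *Igfbp1* and *Angptl4* rose, by 16.2-, 12.6-, 12.5- and 1.68-fold. These 4 of the 10 genes were called, all of them higher, at an adjusted *P* value under 0.05 by edgeR's quasi-likelihood test with an FC above 1.5. Over all tested genes 6.76% were called in this comparison, 3.36% as higher and 3.4% as lower. The median log2 FC was 1.15 over the 10 genes and 0.03 over all tested genes.

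*Lepr* had 3.43, 3.41 and 2.39 CPM in the WT+con livers and 41.8, 52.9 and 53.8 CPM in the WT+EtOH livers. The groups were far apart and narrow, with a ratio of the highest to the lowest liver of 1.43 and 1.29. The log2 FC of *Lepr* was 4.02 (SE 0.191, adjusted *P* = 0.000292), and it was 3.87 to 4.11 with any liver left out. *Gdf15* had 4.37, 2.18 and 1.80 CPM in WT+con and 31.6, 18.1 and 54.5 CPM in WT+EtOH. Its WT+EtOH livers spread over a 3.01-fold range, all above the control livers, and the log2 FC was 3.66 (SE 0.493, adjusted *P* = 0.00817).

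*Fgf21* had 0.698, 3.03 and 1.15 CPM in WT+con and 12.01, 4.44 and 57.4 CPM in WT+EtOH. The groups did not overlap, but the WT+EtOH livers spanned a 12.9-fold range, with liver 3 the highest and liver 2 the lowest. The log2 FC of *Fgf21* was 3.91 with a 95% confidence interval of 1.53 to 6.28, and it was not called (SE 1.01, adjusted *P* = 0.0563). Without WT+EtOH liver 3 the log2 FC fell to 2.33 (adjusted *P* = 0.0917), and without WT+con liver 2 it was 4.74 (adjusted *P* = 0.105). It was called at an adjusted *P* of 0.0344 without WT+EtOH liver 2, at 0.00489 by DESeq2 and at 0.0174 when all 12 livers shared an estimate of the spread.

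*Igfbp1*, which binds insulin-like growth factors and is raised in fasting, had 25.0, 11.2 and 12.8 CPM in WT+con and 344, 80.1 and 185 CPM in WT+EtOH. All ethanol livers were above all control livers, and the order of the WT+EtOH livers differed from that of *Gdf15* and *Fgf21*, with liver 1 the highest. The log2 FC was 3.64 (SE 0.569, adjusted *P* = 0.0136), and 3.01 and still called without WT+EtOH liver 1. The call was lost without WT+con liver 2 or liver 3 (adjusted *P* = 0.0577 and 0.0585). *Igfbp2*, the related gene with the highest level, had 677, 571 and 541 CPM in WT+con and 641, 469 and 462 CPM in WT+EtOH, which overlapped (log2 FC −0.17, SE 0.162, adjusted *P* = 0.539).

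*Angptl4*, an inhibitor of lipoprotein lipase, had 93.5, 97.0 and 90.2 CPM in WT+con and 132, 172 and 162 CPM in WT+EtOH. The change was small beside that of *Lepr*, but the control livers lay within a 1.07-fold range (log2 FC 0.75, SE 0.123, adjusted *P* = 0.0152). The call of *Angptl4* was lost when any 1 of the 3 WT+con livers was left out, with adjusted *P* values of 0.0583 to 0.0637 and log2 FCs of 0.72 to 0.78. It was also lost when all 12 livers shared an estimate of the spread (log2 FC 0.73, adjusted *P* = 0.0687). Without WT+con liver 2 or liver 3 the count of called genes among the 10 was 2 in place of 4. *Angptl8*, whose product holds back the lipase after feeding, had 23.4, 15.9 and 38.5 CPM in WT+con and 36.2, 16.5 and 98.8 CPM in WT+EtOH and was not called (log2 FC 0.97, SE 0.617, adjusted *P* = 0.364).

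Follistatin (*Fst*) had 1.86, 2.14 and 0.92 CPM in WT+con and 5.10, 2.45 and 4.74 CPM in WT+EtOH. The groups did not overlap, and the log2 FC of 1.32 was not called (SE 0.388, adjusted *P* = 0.0787). *Inhbe*, the activin E subunit, had 41.4, 54.5 and 54.2 CPM against 79.3, 40.7 and 63.2 CPM (log2 FC 0.30, SE 0.230). *Inhba*, the activin A subunit, had 7.62, 23.7 and 10.1 CPM against 4.91, 5.56 and 18.5 CPM (log2 FC −0.51, SE 0.605). The groups overlapped for both subunits. In all, 6 of the 10 genes were higher in WT+EtOH without overlap between the groups. Of all tested genes 16.2% were higher in this way, and 32.9% did not overlap in either direction. Beside these changes, the stellate cell markers summed to 247 to 300 CPM in WT+con and 340 to 395 CPM in WT+EtOH, with 2 of 7 called higher. The pancreas markers, 4 of 6 of which had no read in either group, summed to 20.9 to 30.6 and 8.57 to 10.3 CPM, nearly all of it *Cela1*. The Kupffer cell markers overlapped at 328 to 429 and 297 to 756 CPM, where the top value was WT+EtOH liver 2 and livers 1 and 3 had 315 and 297 CPM. WT+EtOH liver 2 was also the lowest of its group for *Fgf21*, *Gdf15*, *Igfbp1*, *Angptl8*, *Fst* and *Inhbe*, but not for *Lepr*, *Angptl4*, *Igfbp2* or *Inhba*. All 5 adipocyte markers were at 0 in WT+EtOH. In WT+con 3 of the 5 were at 0 as well, and the sum was 0.266 to 0.607 CPM. Of the hepatocyte markers, *Tat* was called higher (log2 FC 1.25) and *Apoa1* lower (−1.08). The part of these cells in the levels was not tested.

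**Figure D2:**
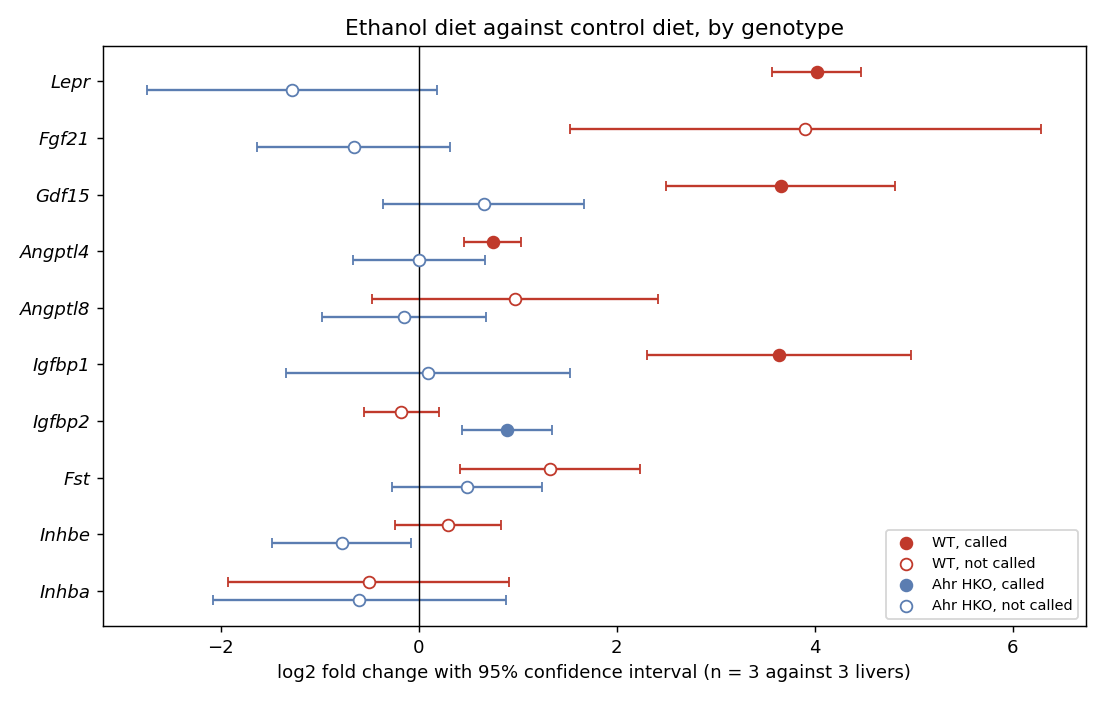
Log2 FC of the ethanol against the control diet for each gene in WT (red) and *Ahr* HKO (blue), with 95% confidence intervals from the edgeR fits of 3 against 3 livers. Filled points were called. In WT the point of *Lepr* is at 4.02, and in *Ahr* HKO it is at −1.28 with an interval that spans 0.

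The second comparison set *Ahr* HKO against WT livers on the control diet and asks whether loss of hepatocyte AhR went with other levels without ethanol. *Lepr*, *Igfbp1*, *Angptl4* and *Gdf15* were higher in *Ahr* HKO, and *Igfbp2* was lower. These 5 of the 10 genes were called, 4 higher and 1 lower. Calls were frequent here, at 19.9% of all tested genes (9.77% higher and 10.1% lower). The median log2 FC was 0.73 over the 10 genes and 0.00 over all tested genes.

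*Lepr* had 10.7, 9.57 and 37.0 CPM in *Ahr* HKO+con. All 3 livers were above the WT+con livers, which had at most 3.43 CPM, and liver 3 was far above livers 1 and 2. The log2 FC was 2.64 (SE 0.546, adjusted *P* = 0.0115), and it was 1.72 and still called without *Ahr* HKO+con liver 3. That liver had the lowest summed Kupffer cell markers of its group (295 CPM, against 840 and 536), and its hepatocyte sum was the highest of the 12 livers (115300 CPM). Most of that sum was *Alb* (82130 CPM), which was higher in WT+EtOH liver 1 (90560 CPM) and *Ahr* HKO+EtOH liver 1 (82390 CPM). *Hnf4a* (1236 CPM) and *Cps1* (6340 CPM) were highest in this liver. The part of Kupffer cells and hepatocytes in the *Lepr* level was not tested.

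*Gdf15* had 17.5, 6.18 and 5.71 CPM in *Ahr* HKO+con, all above WT+con (log2 FC 1.82, SE 0.520, adjusted *P* = 0.0358). Liver 1, which stood apart by its markers, was the highest, and without it the log2 FC fell to 1.11 and was not called (adjusted *P* = 0.0737). The call was also lost without WT+con liver 2 or liver 3 (adjusted *P* = 0.114 and 0.111) and by limma on both FPKM scales (log2 values of 1.31 and 1.72, adjusted *P* = 0.0566 and 0.0504). *Igfbp1* had 80.5, 21.7 and 149 CPM, a 6.89-fold range that reached into the WT+con values (log2 FC 2.37, SE 0.657, adjusted *P* = 0.0323). Its call held only without *Ahr* HKO+con liver 2 and was lost when any other liver was left out, with adjusted *P* values of 0.05003 to 0.105. Its log2 FC was 1.65 without *Ahr* HKO+con liver 3. By limma on the FPKM scales the call was lost at log2 values of 1.95 and 2.07 (adjusted *P* = 0.0780 and 0.0706). The count of called genes was 3 without WT+con liver 2 or *Ahr* HKO+con liver 1.

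*Angptl4* had 248, 166 and 229 CPM in *Ahr* HKO+con, all above the WT+con livers. Its log2 FC was 1.20 (SE 0.160, adjusted *P* = 0.00254) and stayed called with any liver left out. *Igfbp2* had 329, 247 and 348 CPM, all below the WT+con livers. Its log2 FC was −0.95 (SE 0.168, adjusted *P* = 0.00667), also called with any liver left out. The IGF binding genes *Igfbp1* and *Igfbp2* thus moved in opposite directions in this comparison.

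*Fgf21* had 1.44, 2.23 and 1.67 CPM in *Ahr* HKO+con, inside the range of WT+con (log2 FC 0.13, 95% confidence interval −1.08 to 1.33). *Angptl8* had 37.7, 36.2 and 66.2 CPM (log2 FC 0.86, SE 0.359, adjusted *P* = 0.113). *Inhbe* had 58.8, 63.6 and 104 CPM, above WT+con without overlap but not called (log2 FC 0.60, SE 0.236, adjusted *P* = 0.0948). *Fst* with 2.96, 3.09 and 1.27 CPM and *Inhba* with 2.78, 17.1 and 6.43 CPM overlapped with WT+con. Without overlap, 4 of the 10 genes were higher, against 23.2% of all tested genes, and 1 was lower, against 24.1%, with 47.3% of all tested genes in either direction. The summed markers of Kupffer cells (295 to 840 CPM), stellate cells (238 to 255 CPM), endothelial cells (259 to 279 CPM) and leukocytes (13.5 to 27.5 CPM) in *Ahr* HKO+con overlapped with those in WT+con. The cholangiocyte sums (44.5 to 476 CPM) did so too. Single markers were called higher: *Pecam1* (log2 FC 0.64), *S100a8* (1.68), *Epcam* (2.28), *Cfd* (4.71) and the hepatocyte markers *Hnf4a* (0.97) and *Tat* (1.72). *Colec11* (−0.63), *Cd79a* (−1.73) and the pancreas marker *Cela2a* (−2.83) were called lower. The part of these cells in the levels was not tested.

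The third comparison set *Ahr* HKO against WT livers on the ethanol diet. *Lepr* was lower in *Ahr* HKO by 6.25-fold and was the only one of the 10 genes called, where 1.06% of all tested genes were called (0.684% as higher and 0.378% as lower). *Lepr* had 4.52, 13.3 and 5.84 CPM in *Ahr* HKO+EtOH, all below the WT+EtOH livers at 41.8 to 53.8 CPM. The log2 FC of *Lepr* was −2.64 (SE 0.402, adjusted *P* = 0.0399). It ranged from −3.27 to −2.36 with a liver left out. The call remained without *Ahr* HKO+EtOH liver 2, and it was lost in the 5 other cases, with adjusted *P* values of 0.0584 to 0.168.

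*Fgf21* had 1.84, 0.880 and 0.631 CPM in *Ahr* HKO+EtOH, against 4.44 to 57.4 CPM in WT+EtOH. The groups did not overlap, and the log2 FC of −4.42 was not called with this fit (95% confidence interval −6.76 to −2.09, adjusted *P* = 0.0838). Without WT+EtOH liver 3 the log2 FC was −2.85 (adjusted *P* = 0.0722). *Fgf21* was called by DESeq2 (adjusted *P* = 0.00117) and when all 12 livers shared an estimate of the spread (0.0259). *Gdf15* had 17.7, 11.8 and 16.9 CPM, all below WT+EtOH, and was not called (log2 FC −1.17, SE 0.371, adjusted *P* = 0.147). *Lepr*, *Fgf21* and *Gdf15* were the 3 of 10 genes without overlap between the groups, all lower in *Ahr* HKO, against 14.2% of all tested genes.

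*Igfbp1* had 126, 78.0 and 66.0 CPM in *Ahr* HKO+EtOH, overlapping with WT+EtOH at its lower end (log2 FC −1.17, SE 0.490, adjusted *P* = 0.233). *Angptl4* had 132, 252 and 263 CPM (log2 FC 0.47, SE 0.266) and *Angptl8* had 59.0, 24.8 and 43.0 CPM (log2 FC −0.25, SE 0.608). *Igfbp2* with 463, 660 and 590 CPM overlapped with WT+EtOH (log2 FC 0.13, 95% confidence interval −0.31 to 0.56). *Fst* lay within a narrow range of 3.05 to 3.63 CPM, *Inhbe* had 31.2 to 59.6 CPM and *Inhba* 3.61 to 8.99 CPM, and all 3 overlapped with WT+EtOH. The median log2 FC was −0.61 over the 10 genes and −0.01 over all tested genes. Markers of Kupffer cells summed to 182 to 230 CPM in *Ahr* HKO+EtOH and 297 to 756 CPM in WT+EtOH, and those of leukocytes to 6.26 to 8.75 and 11.0 to 21.8 CPM, neither with overlap. The stellate cell markers (286 to 325 and 340 to 395 CPM, 0 of 7 called by edgeR or DESeq2, with 2 at an unadjusted *P* under 0.05) and the pancreas markers (19.4 to 30.1 and 8.57 to 10.3 CPM, with *Cela1* called higher) did not overlap either. Nearly all of the pancreas sums was *Cela1*, and *Cpa1*, *Pnlip* and *Amy2a5* had no read in either group. The hepatocyte marker *Tat* was called higher (log2 FC 1.63). Of the 7 Kupffer cell markers edgeR called 0, with 6 at an unadjusted *P* under 0.05, and DESeq2 called 5. The part of these cells in the levels of *Lepr*, *Fgf21* and *Gdf15* was not tested.

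**Figure D3:**
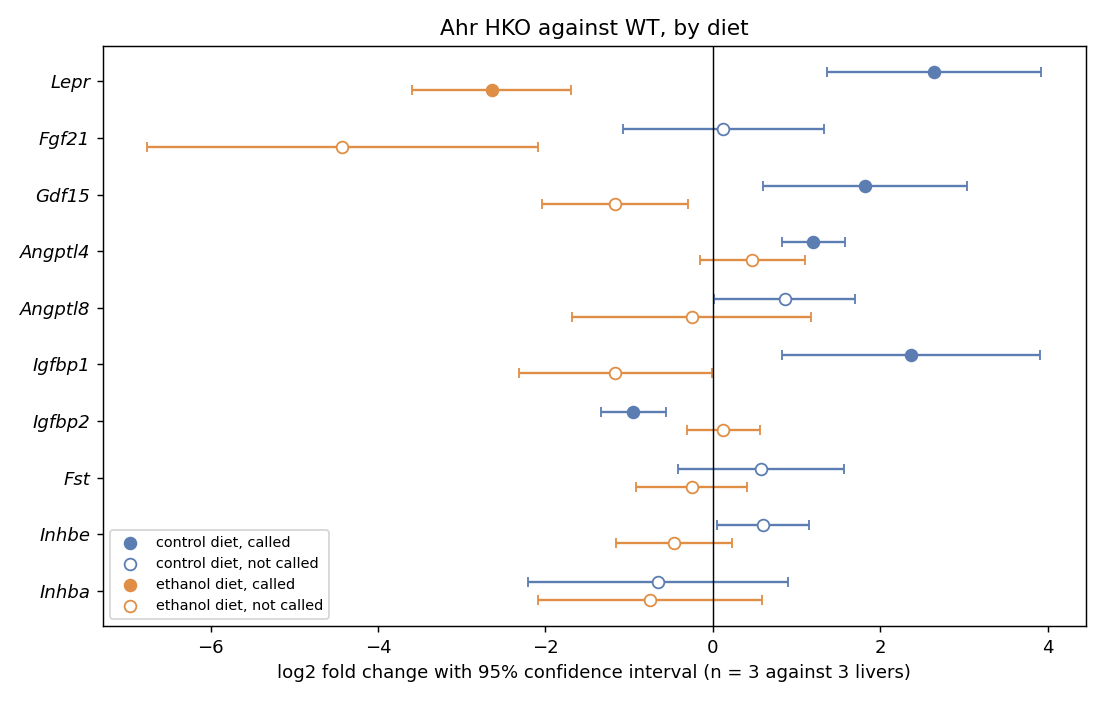
Log2 FC of *Ahr* HKO against WT for each gene on the control diet (blue) and the ethanol diet (orange), with 95% confidence intervals from the edgeR fits of 3 against 3 livers. Filled points were called. *Lepr* lies at 2.64 on the control diet and at −2.64 on the ethanol diet.

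The fourth comparison, the ethanol against the control diet within *Ahr* HKO, gave a single called gene among the 10. *Igfbp2* rose by 1.85-fold, from 329, 247 and 348 CPM to 463, 660 and 590 CPM, without overlap (log2 FC 0.89, SE 0.194, adjusted *P* = 0.0146). Of all tested genes 22% were called in this comparison (10.3% as higher). The groups did not overlap for 49.8% of all tested genes, 24.5% higher and 25.3% lower. *Igfbp2* stayed called with any liver left out. *Lepr*, *Gdf15* and *Igfbp1*, which were called in WT, were not called here. The log2 FC was −1.28 for *Lepr* (SE 0.622, adjusted *P* = 0.156), and −0.36 without *Ahr* HKO+con liver 3. *Gdf15* had 0.66 (SE 0.433, adjusted *P* = 0.283), and it was called at 1.38 without *Ahr* HKO+con liver 1 (adjusted *P* = 0.0114). *Igfbp1* had 0.09 with a 95% confidence interval of −1.34 to 1.52. *Fgf21* had −0.65 (SE 0.415, adjusted *P* = 0.263), and it was called at −1.22 without *Ahr* HKO+EtOH liver 1 (adjusted *P* = 0.0460). With either of these 2 livers left out, 2 of the 10 genes were called.

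*Inhbe* had 58.8, 63.6 and 104 CPM on the control and 31.2, 41.7 and 59.6 CPM on the ethanol diet, and was not called (log2 FC −0.78, SE 0.299, adjusted *P* = 0.0866). *Angptl4* had a log2 FC of 0.01 (95% confidence interval −0.66 to 0.67) and *Angptl8* one of −0.15. *Fst* and *Inhba* had log2 FCs of 0.49 and −0.60 and were not called. The median log2 FC was −0.07 over the 10 genes and −0.02 over all tested genes. Markers of other cells moved in this comparison: all 7 Kupffer cell markers were called lower, and their sum was 295 to 840 CPM in *Ahr* HKO+con and 182 to 230 CPM in *Ahr* HKO+EtOH. The summed leukocyte markers were 13.5 to 27.5 and 6.26 to 8.75 CPM, with *Ms4a1* at 0 in 1 of the 3 and in 2 of the 3 livers. The endothelial markers summed to 259 to 279 and 178 to 199 CPM. The stellate cell markers moved the other way, from 238 to 255 CPM up to 286 to 325 CPM, with *Colec11* and *Des* called higher and *Hhip* lower. Of the hepatocyte markers, *Ttr* was called higher (log2 FC 0.81). The part of these cells in the levels of the 10 genes was not tested.

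The interaction, the diet effect in *Ahr* HKO minus that in WT over all 12 livers, tests whether the diet effects differ. It was called for 5 of the 10 genes at an adjusted *P* value under 0.05, 4 with a smaller or opposite effect in *Ahr* HKO and 1 with a larger one, against 22.3% of all tested genes (11.1% lower and 11.2% higher). *Lepr* had the largest difference, −5.28 on the log2 scale (SE 0.752, adjusted *P* = 0.00117). *Fgf21* had −4.55 (SE 1.19, adjusted *P* = 0.0203), *Igfbp1* −3.53 (SE 0.923, adjusted *P* = 0.0200) and *Gdf15* −2.99 (SE 0.716, adjusted *P* = 0.0138). *Igfbp2* had 1.08 in the other direction (SE 0.263, adjusted *P* = 0.0149). *Igfbp1* lost the call without WT+con liver 2 (adjusted *P* = 0.0509), and the other 4 kept it with any liver left out. The value of *Fgf21* was −2.98 without WT+EtOH liver 3 and −5.38 without WT+con liver 2. That of *Gdf15* was −2.27 without *Ahr* HKO+con liver 1, and that of *Igfbp1* was −2.92 without WT+EtOH liver 1 and −2.82 without *Ahr* HKO+con liver 3. *Lepr* had −4.37 without *Ahr* HKO+con liver 3 and −5.89 without *Ahr* HKO+EtOH liver 2. *Angptl4* had −0.72 (adjusted *P* = 0.137), *Inhbe* −1.06 (adjusted *P* = 0.0904), and *Angptl8*, *Fst* and *Inhba* had adjusted *P* values of 0.298 to 0.960. The pairs of groups share livers, so the comparisons are not independent of each other.

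The order of the group means was WT+EtOH, *Ahr* HKO+con, *Ahr* HKO+EtOH, WT+con for *Lepr*, and the first and the second, like the third and the fourth, did not overlap. For *Gdf15* the order was WT+EtOH, *Ahr* HKO+EtOH, *Ahr* HKO+con, WT+con, with a gap at the top and at the bottom and overlap between the *Ahr* HKO groups. For *Fgf21* a gap lay only between WT+EtOH and the other groups. For *Angptl4* it lay only between WT+con and the other groups, and for *Igfbp2* only between *Ahr* HKO+con and the other groups. Neighbouring groups overlapped throughout for *Angptl8*, *Igfbp1*, *Fst*, *Inhbe* and *Inhba*.

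The deposited values also carry a trace of which transcripts of a gene were read. The count divided by FPKM and by library size is proportional to the transcript length behind a gene's value. For 6873 genes with 1 listed transcript and a minimum count in every liver, the largest departure of this length over the 12 livers had a median of 0.0572% and a 95th percentile of 0.502%. *Fgf21*, with 1 listed transcript and counts down to 28, did not reach that minimum and lay between 100% and 101.6% of WT+con liver 1. *Lepr* has 3 listed transcripts, which matched GENCODE models of 5542, 4127 and 3410 bases. Relative to WT+con liver 1, its implied length was 100% to 100.4% in WT+con and 93.0% to 94.0% in WT+EtOH, with no overlap. It was 95.4%, 93.1% and 91.0% in *Ahr* HKO+con and 97.7%, 90.1% and 99.4% in *Ahr* HKO+EtOH. Within *Ahr* HKO+EtOH, the liver with the shortest length, liver 2, was also the one with the most *Lepr* (13.3 CPM), and within *Ahr* HKO+con the shortest, liver 3, again had the most (37.0 CPM). In WT+con the shortest, liver 1, had the most too (3.43 CPM), within the narrow range above. In WT+EtOH the shortest was liver 2 (52.9 CPM), while liver 3 had the most (53.8 CPM). *Ahr* HKO+EtOH liver 2 was also shorter than every WT+EtOH liver, though its *Lepr* level was lower.

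*Gdf15*, with 2 listed transcripts of 1545 and 1380 bases, had an implied length of 100% to 100.5% in WT+con and 95.8% to 97.8% in WT+EtOH. It was 94.0% to 100% in *Ahr* HKO+con and 94.1% to 94.96% in *Ahr* HKO+EtOH, so the *Ahr* HKO+EtOH livers lay below all livers of both WT groups. *Igfbp2*, with 2 listed transcripts, stayed between 100% and 100.1% in every liver, and *Angptl4*, with 1, between 99.98% and 100%. *Fst*, with 3, moved between 99.95% and 103.8% at counts near the lowest of the 10 genes. The gene values do not say which transcript of *Lepr* or *Gdf15* gained or lost share, and the implied length was not tested.

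**Figure D4:**
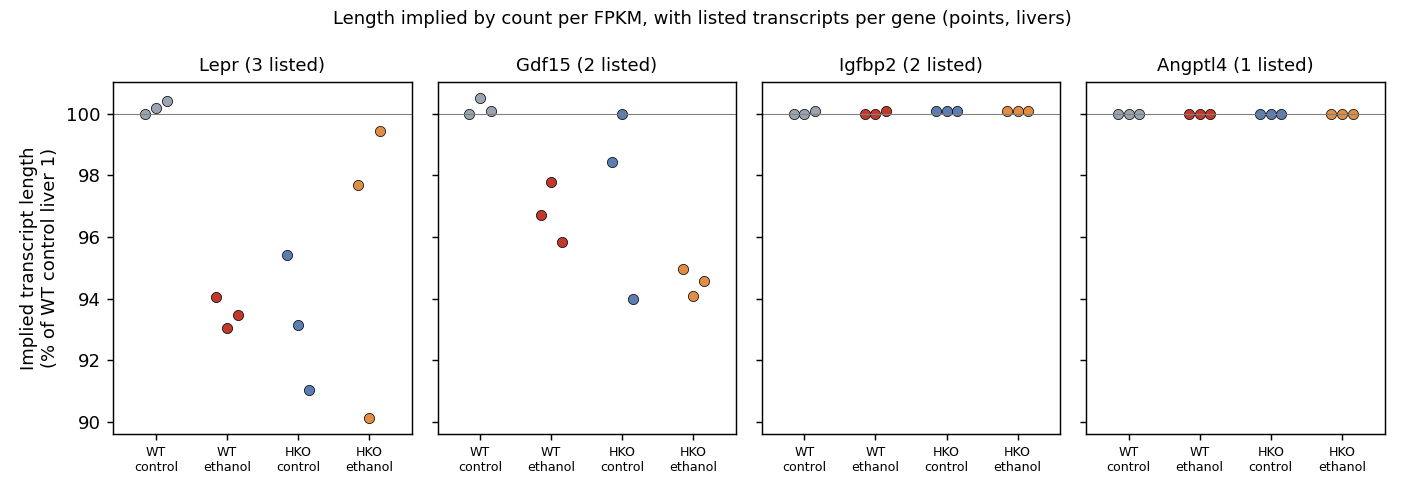
Transcript length implied by count per FPKM, in percent of WT+con liver 1, with a point for each liver, for *Lepr*, *Gdf15*, *Igfbp2* and *Angptl4*. *Lepr* lies at 93.0% to 94.0% in WT+EtOH against 100% to 100.4% in WT+con, while *Igfbp2* and *Angptl4* stay between 99.98% and 100.1% in every liver.

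Partners of the 10 genes were described by lists, with the called genes of each given as a count and named where they had the smallest adjusted *P* values. In the list of leptin signalling, *Lep* had no read in any liver. Of the other 7 genes none was called in WT by edgeR for the ethanol diet, where 1 had an unadjusted *P* under 0.05 and DESeq2 and limma called 0, and the median log2 FC was 0.03. *Socs3*, a feedback inhibitor that leptin and cytokines induce, had 22.2 ± 13.8 CPM in WT+con and 10.5 ± 3.39 in WT+EtOH (SD, n = 3, adjusted *P* = 0.181). In *Ahr* HKO against WT on the control diet, 4 of the 7 were called higher. They were *Ptpn1*, a phosphatase that ends leptin signals (log2 FC 1.95, SE 0.162, adjusted *P* = 0.000896), *Stat3*, the transcription factor of the receptor (0.89), *Socs3* (1.56) and *Leprot*, whose product limits the receptor at the cell surface (0.59). With ethanol in *Ahr* HKO, *Ptpn1* fell by 2.04, *Socs3* by 1.85 and *Leprot* by 0.95 on the log2 scale, and these 3 were the ones called. *Ptpn1* stood at 28.2 ± 1.66, 29.9 ± 4.99, 108 ± 21.8 and 26.4 ± 1.67 CPM in WT+con, WT+EtOH, *Ahr* HKO+con and *Ahr* HKO+EtOH.

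Of the receptors and partners of FGF21 and GDF15, 7 of 9 genes were tested. On the control diet *Klb*, the co-receptor of FGF21, was lower in *Ahr* HKO (12.5 ± 2.65 against 31.9 ± 7.40 CPM, log2 FC −1.35, adjusted *P* = 0.00443), as were *Fgfr2* (−0.81) and *Fgfr3* (−0.85). In WT the ethanol diet lowered *Fgfr3*, the 1 of the 7 that was called (log2 FC −0.75, adjusted *P* = 0.0117). With ethanol in *Ahr* HKO, *Fgfr2* (log2 FC 0.87, adjusted *P* = 0.00529) and *Fgf1*, which signals through FGF receptors (1.17), rose and were the genes called. *Fgf1* was also the 1 gene of this list called higher in *Ahr* HKO against WT on the ethanol diet (0.61, adjusted *P* = 0.0441).

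Of 9 genes around lipoprotein lipase, *Apoa5*, which promotes lipolysis, was the 1 called with ethanol in WT, where it went from 1116 ± 225 to 1885 ± 81.5 CPM (log2 FC 0.77, adjusted *P* = 0.0344). *Apoa5* was also higher in *Ahr* HKO on the control diet (log2 FC 1.04, adjusted *P* = 0.0286), again the 1 call of the list. In *Ahr* HKO 3 genes were called higher with ethanol. They were *Lmf1*, which the lipase needs to fold (log2 FC 0.69, adjusted *P* = 0.00414), and the lipases *Lipg* (1.37) and *Lipc* (0.71, adjusted *P* = 0.0490).

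Among 10 other genes of the IGF system none was called in WT by edgeR, where 2 had an unadjusted *P* under 0.05 and DESeq2 and limma called 0. On the control diet *Igfals*, the stabilising subunit of circulating IGF complexes, was lower in *Ahr* HKO (40.0 ± 15.3 against 105 ± 15.2 CPM, log2 FC −1.38, adjusted *P* = 0.00993), as was *Igfbp5* (−1.59). Both rose with ethanol in *Ahr* HKO, each by a log2 FC of 1.48, and these were the 2 calls of the list there. *Igfbp2* was likewise called lower and then higher in these comparisons, which share the *Ahr* HKO+con livers.

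Of 12 tested genes of the activin pathway, *Inhbb*, the subunit of activin B, was higher in *Ahr* HKO on the control diet (9.23 ± 5.27 against 1.82 ± 0.144 CPM, log2 FC 2.34, adjusted *P* = 0.00602) and fell with ethanol there by 2.12 on the log2 scale (adjusted *P* = 0.0306). Its interaction was −3.27 (adjusted *P* = 0.0108). *Inhbc*, the subunit closest to *Inhbe*, rose with ethanol in *Ahr* HKO (log2 FC 0.66), where the receptor *Acvr1b* fell by 1.20 on the log2 scale. The receptor *Acvr2b* was the 1 gene of the list called in WT, lower with ethanol (−0.92, adjusted *P* = 0.0278).

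Of 16 other hepatokines, 3 were called higher and 1 lower with ethanol in WT. *Tsku*, a secreted protein of liver that rises with steatosis, went from 28.6 ± 11.97 to 244 ± 118 CPM (log2 FC 3.10, adjusted *P* = 0.0102), and its interaction was −2.28 (adjusted *P* = 0.0274). *Sepp1*, which encodes selenoprotein P, rose by a log2 FC of 0.80, and *Enho*, which encodes adropin, fell by 1.59 (adjusted *P* = 0.0483). *Sparcl1* rose by a log2 FC of 1.08. With ethanol in *Ahr* HKO, 3 were called higher and 1 lower. *Serpinf1*, which encodes pigment epithelium-derived factor, had the smallest adjusted *P* and rose (log2 FC 0.84, adjusted *P* = 0.00748), as did *Fgf1* and *Rbp4* (0.65), the carrier of retinol. *Fgl1*, a growth factor of hepatocytes, fell from 1515 ± 401 to 342 ± 168 CPM (adjusted *P* = 0.0105). On the control diet *Dpp4* (log2 FC −0.73, adjusted *P* = 0.00636) and *Enho* (−1.30) were lower and *Tsku* (1.81) higher in *Ahr* HKO. On the ethanol diet *Fgf1* was the 1 gene of the list called.

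Lists of genes under 3 transcription factors that are known to act on some of the 10 genes were set beside them. The lists of ATF4 and PPARA count *Atf4* and *Ppara* themselves among their 10 genes. Of 10 genes under ATF4, which acts on *Fgf21* and *Gdf15*, 5 were called higher with ethanol in WT, with a median log2 FC of 1.58 over the list. *Psat1*, of serine synthesis, had the smallest adjusted *P* (log2 FC 2.71, adjusted *P* = 0.00787), before *Nupr1* (2.83), *Atf3* (3.65) and *Atf5* (1.18). The interaction was called lower for 6 of the 10, with *Psat1* at −4.78 (adjusted *P* = 0.000644) and *Atf4* itself at −0.89 (adjusted *P* = 0.0262). With ethanol in *Ahr* HKO, *Trib3* was called higher (log2 FC 1.92, adjusted *P* = 0.00365) and *Psat1* lower (−2.08, adjusted *P* = 0.0137). *Trib3* had 1.83 in WT (adjusted *P* = 0.131, not called) and an interaction of 0.09. Of 10 genes under PPARA, the fatty acid receptor that acts on *Fgf21* and *Angptl4*, *Pdk4* (log2 FC 2.48, adjusted *P* = 0.00297) and *Cyp4a14* (4.35, adjusted *P* = 0.0249) were called higher with ethanol in WT, and the median was 0.41. *Cpt1a* (−0.58) and *Ppara* itself (−0.44) were lower there and not called, and the other genes of the list had positive values. In *Ahr* HKO against WT on the control diet *Plin2* (1.07, adjusted *P* = 0.0101) and *Pdk4* (0.98, adjusted *P* = 0.0199) were called higher. Of 6 tested AhR targets, *Nqo1*, *Cyp1a2*, *Cyp1a1* and *Ugt1a6a* were called higher with ethanol in WT, with log2 FCs of 3.23, 1.16, 2.40 and 0.85, and *Nqo1* and *Cyp1a2* in *Ahr* HKO as well (2.45 and 2.09). In *Ahr* HKO against WT on the control diet *Cyp1a2* was called lower (log2 FC −1.67, adjusted *P* = 0.0197) and *Cyp1a1* higher (adjusted *P* = 0.0453), while *Tiparp* had a log2 FC of 0.97, *Nqo1* −0.55, *Ugt1a6a* −0.09 and *Cyp1b1* 0.10. On the ethanol diet *Cyp1a2* was the 1 call (−0.73, adjusted *P* = 0.0433).

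**Figure D5:**
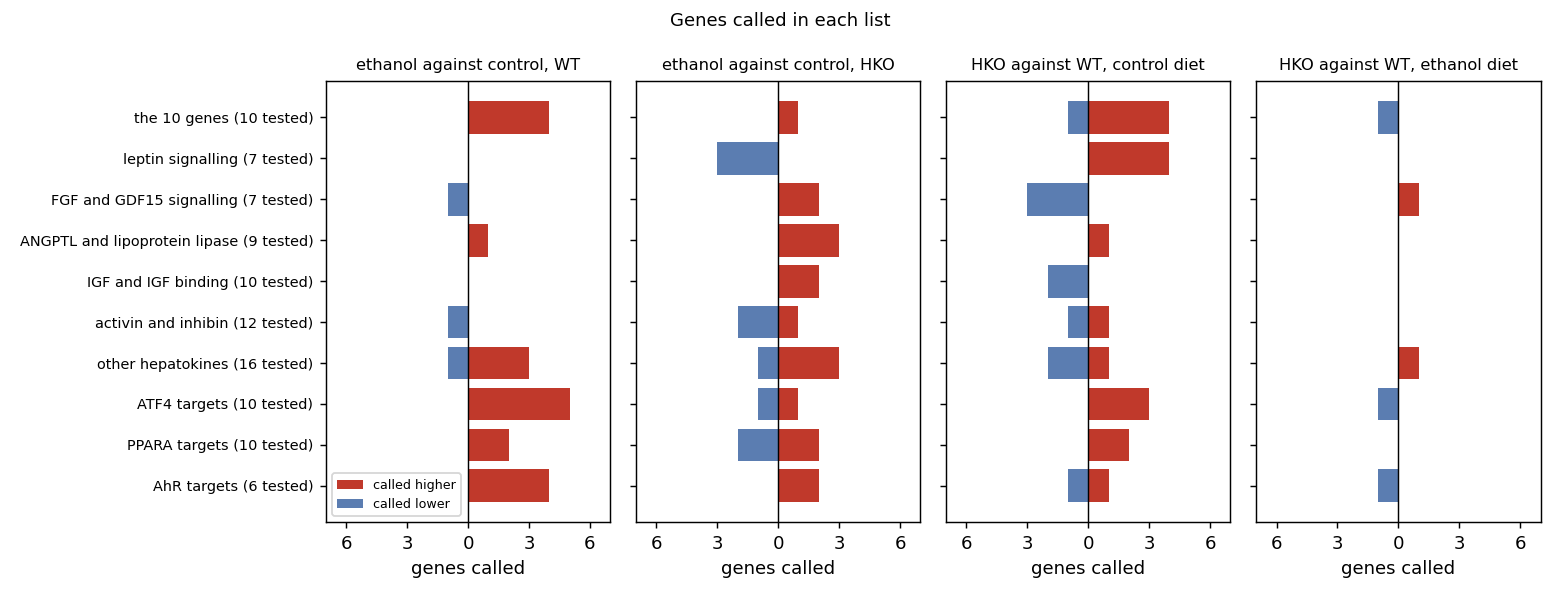
Number of genes called higher (red, right of 0) and lower (blue, left of 0) for the 10 genes and for each list of partners or targets, in the 4 comparisons of pairs of groups, with the number tested beside each name. In WT with ethanol the 10 genes have 4 calls and the ATF4 targets 5, all higher. In *Ahr* HKO with ethanol they have 1 call and 2 calls.

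For the 5 genes called in a pair of groups, the genes with the most similar profile were taken from 11725 genes with a mean of at least 1 CPM, by the root mean square (RMS) difference of centred log2 CPM over the 12 livers. For *Lepr*, whose own SD over the livers was 1.58, these were *Gadd45b*, a stress-induced gene (RMS 0.646), *Gm19619* (0.738) and *Mirt2* (0.839). *Gadd45b* had group means of 1.08, 8.64, 2.95 and 2.58 CPM in WT+con, WT+EtOH, *Ahr* HKO+con and *Ahr* HKO+EtOH. For *Gdf15* they were *Tsku* (0.721), *Ptges* (0.771) and *Pdk4* (0.774), and for *Igfbp1* they were *Gdf15* itself (0.785), *Cyp2c38* (0.803) and *Dusp6* (0.837). For *Angptl4* they were *Fosl2* (0.225), *Zmynd19* (0.226) and *A230072C01Rik* (0.232), and for *Igfbp2* *Dym* (0.159), *Sirt3* (0.171) and *Clmn* (0.173). The *Igfbp1* profile was thus nearest to that of another of the 10 genes, out of 11725. These are descriptions over livers that share the group structure.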

How the data were processed

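Total RNA of 12 mouse livers (4 groups of 3) was made by the authors into stranded poly(A) libraries and read from both ends. The submitters' processing notes name FastQC 0.11.7, Trimmomatic 0.38, HISAT2 2.1.0, Bowtie2 2.3.4.1, StringTie 1.3.4d and the build mm10. The authors deposited counts per gene, which were whole numbers without normalization, and FPKM values, scaled by gene length and library size. TPM values, which the authors scaled further, were not used.

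Counts were filtered with filterByExpr over the 4 groups, scaled with TMM factors (0.925 to 1.16) and tested with the quasi-likelihood method of edgeR 4.0.16 in R 4.3.3, each pair of groups with its own 6 libraries and the interaction with all 12. Adjusted *P* values are Benjamini-Hochberg values over 14038 genes. A pair was called at an adjusted *P* under 0.05 with an FC above 1.5. The scripts were tested on simulated data. The genes, lists and tests were chosen with earlier results of these data known. Genes named from lists were at most 4 called genes per comparison with the smallest adjusted *P*. A gene of these lists is not reported here and was left out of their counts. Alternatives used DESeq2 1.42.0, limma 3.58.1, other filters and scalings, and each library left out. No pair of libraries had identical counts, and replicates differed beyond sampling noise (chi-square per gene 65.5 to 295). Gene, promoter and transcript annotations came from RefSeq (GRCm38.p6) and GENCODE. In the annotation, 115 exon bases of *Fst* (2.51%) overlap an antisense gene.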

Additional observations from a re-analysis of the deposited data

Results flagged for a closer look

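The difference between the diet effects of the genotypes passed its own test, the interaction over all 12 livers, for 5 of the 10 genes. The diet effect in *Ahr* HKO minus that in WT was −5.28 for *Lepr*, −4.55 for *Fgf21*, −3.53 for *Igfbp1*, −2.99 for *Gdf15* and 1.08 for *Igfbp2* on the log2 scale. For *Lepr* the effect was 4.02 in WT and −1.28 in *Ahr* HKO, so the point estimates had opposite signs, and the control livers of the genotypes already differed by 2.64. For *Igfbp2* the effect was −0.17 in WT and 0.89 in *Ahr* HKO, where the control livers differed by −0.95. *Ahr* HKO+con liver 3 carried the highest *Lepr* of its group, and without it the interaction of *Lepr* was −4.37 and stayed called. Over the 14038 tested genes 22.3% had a called interaction. The summed Kupffer cell markers were 297 to 756 CPM in WT+EtOH and 182 to 230 CPM in *Ahr* HKO+EtOH, and 5 of the 7 markers had a called interaction, all lower. Their part in the 5 differences was not tested.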

How the results depend on the processing

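Of 390 log2 values of the 10 genes under 8 alternatives (7 for the interaction), 360 kept their direction and side of the threshold, 15 gained a call, 6 lost one and 9 changed sign. The count of called genes among the 10 kept within 1.5 times under the alternatives except as follows. For *Ahr* HKO against WT on the control diet it was 3 by limma on either FPKM scale, where *Gdf15* and *Igfbp1* lost the call, and 5 by edgeR. For *Ahr* HKO against WT on the ethanol diet it was 3 by DESeq2, 2 with all 12 libraries in a single fit and 4 at an adjusted *P* under 0.25, against 1. For ethanol in *Ahr* HKO it was 2 by DESeq2, 2 with the replicate block and 3 at an adjusted *P* under 0.25, against 1. With a library left out it ranged from 2 to 5 for ethanol in WT, 3 to 5 for the genotypes on the control diet, 0 to 1 on the ethanol diet, 1 to 2 for ethanol in *Ahr* HKO and 4 to 5 for the interaction. The share of all tested genes called was not taken at an adjusted *P* under 0.25 or with a library left out. Whether the counts of the 10 genes there differ from that share is therefore not known. 

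Signs changed only for values that were not called, some near 0 and others as far from it as −0.75 (*Inhba* on the ethanol diet). *Angptl8* on the ethanol diet was 0.045 with the replicate block. *Igfbp2* on the ethanol diet was −0.010 by limma on quantile-normalized log2(FPKM + 1) and −0.0945 on log2(FPKM + 0.1). *Angptl4* with ethanol in *Ahr* HKO was −0.031 with the replicate block, −0.22 and −0.11 by limma. The interaction of *Inhba* was 0.16 with the replicate block, 0.16 and 0.013 by limma. With a library left out, *Inhba* ranged from −1.38 to 0.14 for ethanol in WT, −1.23 to 0.12 on the ethanol diet, −1.09 to 0.31 for ethanol in *Ahr* HKO and −0.73 to 0.84 for the interaction. *Angptl8* ranged from −0.65 to 0.68 on the ethanol diet and −0.47 to 0.20 for ethanol in *Ahr* HKO, where *Angptl4* ranged from −0.16 to 0.26 and *Igfbp1* from −0.36 to 0.82. *Fgf21* ranged from −0.23 to 0.95 on the control diet. The cause was not tested.

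The labels number the livers 1 to 3 in every group and do not say that a number links livers. Deviations of same-numbered livers correlated by −0.0884 to 0.178, with no comparison in which every correlation was over 0.1, so the numbers were not taken as pairs. With the replicate block, the interaction of *Fgf21* was −4.24 (adjusted *P* = 0.0511), and calls over all genes for ethanol in WT numbered 503 in place of 949 and for the genotypes on the ethanol diet 243 in place of 149.

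Over all genes, DESeq2 called 1440 for ethanol in WT and 1044 for the genotypes on the ethanol diet, where a single fit of 12 libraries called 429 and limma on the quantile scale 93. Limma on that scale called 1760 for ethanol in *Ahr* HKO and 1772 between genotypes on the control diet, against 3090 and 2788. Limma on log2(FPKM + 0.1) shifted the median of all genes to 0.16 for ethanol in WT, −0.21 for the genotypes on the ethanol diet and −0.24 for the interaction, and the share of higher calls went from 49.7% to 73.9%, from 64.4% to 21.4% and from 50.2% to 23.1%. By DESeq2 that share was 39.9% for the genotypes on the ethanol diet. The log2 values of *Lepr*, *Gdf15* and *Igfbp1* kept their sign in every comparison under the 8 alternatives with no library left out.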
